A study of Homo sapiens with 12 samples.

Results

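The tripartite motif (TRIM) family was followed through single and combined drug treatment of U937, an established human myelomonocytic AML cell line without the PML/RARA fusion. Members were all gene symbols of the deposited matrix that consist of TRIM, a number and at most 1 letter, plus PML, and each symbol was represented by its transcript row with the highest mean over the 12 libraries. This gave 72 members, drawn from 792 rows, among 44786 gene symbols. All coordinates are hg38. The study compared 4 groups of 3 RNA-sequencing libraries each: untreated cells, cells given 200 nM decitabine (DAC), cells given 1 µM all-trans retinoic acid (ATRA), and cells given both (DAC+ATRA). DAC is a nucleoside analog that traps DNA methyltransferases and lowers DNA methylation, and ATRA is the ligand of the retinoic acid receptors. All groups grew in medium with 20% FCS and 5 ng/ml GM-CSF per the labels, while the study's methods give a lower share of FCS for its cell lines. The drug groups are labelled 72 h and the untreated group 96 h, whereas the design text gives harvest after 72 h with no other time, with treatment over 3 days and fresh DAC each day, and per the methods ATRA was added together with the last DAC dose. The libraries are 1 cell line in technical triplicates per the design text, so p-values measure the spread between these libraries, which may be technical. ATRA was dissolved in DMSO and the control group here was untreated, so drug and solvent cannot be told apart, nor treatment and time if the labelled times hold.

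TRIM proteins carry a RING finger, 1 or more B-boxes and a coiled coil, and most act as ubiquitin or SUMO ligases. The part that follows the coiled coil sets their targets: a PRY-SPRY domain in many antiviral members, a PHD finger and bromodomain in nuclear co-regulators, and NHL repeats in members that bind RNA. Several members are themselves induced by interferons and act in the sensing of viral RNA and DNA, and PML builds the nuclear bodies that are dispersed by the PML/RARA fusion of acute promyelocytic leukemia.

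Between 8042435 and 10683593 reads per library were counted to transcripts (median 9874622), and members took 0.258% to 0.344% of all values. Values are normalized read counts, that is, reads of 1 transcript divided by the size factor of the library, and 3 reads correspond to 2.5 to 3.71 of this unit. A transcript was tested where at least 3 libraries reached a value of 10, which 31 of the 72 members did. Tested members were compared with limma on the log2(normalized read count + 1) scale in 1 fit over all 19373 tested transcripts, and "called" means an adjusted p under 0.01. Libraries are numbered 1 to 3 (untreated), 4 to 6 (DAC), 7 to 9 (ATRA) and 10 to 12 (DAC+ATRA). Libraries of 1 group differed by more than sampling noise (chi-square per degree of freedom 2.21 to 9.52), most between the ATRA libraries 8 and 9. The retinoid response genes CYP26A1, RARB, DHRS3, TGM2 and HIC1 together summed to 373 to 396 in untreated libraries, 389 to 532 with DAC, 4106 to 5455 with ATRA and 6121 to 7117 with DAC+ATRA. Of 10 myelomonocytic markers 9 were tested, and PTPRC was listed at 0. Their sum was 61500 to 68850 in untreated and 35810 to 38460 in DAC+ATRA libraries, where MPO was called lower and 4 others higher. MPO made up most of the untreated sum, with means of 52120 untreated and 14970 with DAC+ATRA, so the fall of the sum was that of MPO. All 4 erythroid markers were listed at 0. The 4 T cell markers summed to 2.76 to 10.2 in untreated and 295 to 388 in DAC libraries, nearly all of it CD2 with CD3E, CD3D and CD8A at or near 0. The 4 B cell markers summed to 485 to 557 in untreated and 1654 to 1780 in DAC+ATRA libraries. The 4 epithelial markers summed to 0 to 0.91 in untreated, 8.65 to 20.9 in DAC and 12.4 to 20.0 in DAC+ATRA libraries, mostly KRT8, with CDH1 listed at 0. The part of these markers in the results on TRIM genes was not tested, and in bulk RNA fewer cells of a type and less RNA per cell cannot be told apart.

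DAC raised a large set on its own, from TRIM72, which was under 5 normalized reads in untreated libraries, to TRIM25. ATRA raised 5 members, which were TRIM14, TRIM22, TRIM38, TRIM56 and TRIM69. All 5 are in the interferon and antiviral group, which was drawn up with results known, so their shared group is a description only. TRIM9, TRIM71, TRIM65, TRIM41 and TRIM13 fell with DAC+ATRA. With DAC, 14 of 31 tested members were called higher and 3 lower, where 33.5% of all tested transcripts were called, 22.2% higher and 11.3% lower. With ATRA, 5 members were higher and 2 lower against 6.97% of all transcripts called, 5.11% higher and 1.87% lower. With DAC+ATRA, 17 members were higher and 5 lower against 41.6% called, 25.5% higher and 16.1% lower. The median log2 fold change of the 31 members was 0.18 under DAC alone, 0.01 under ATRA alone and 0.58 for the combination, beside 0.05, 0 and 0.05 over all tested transcripts. TRIM50, TRIM69 and TRIM72 lay below the filter value of 10 in each untreated library and passed through treated libraries in which they were higher, so their place among the tested members depends on their response. TRIM2 lay below it in 1 untreated library and would pass without its libraries with DAC. Among the 27 members at 10 or more in each untreated library, 10 were called higher and 3 lower with DAC, 4 and 2 with ATRA, and 13 and 5 with DAC+ATRA. Of all 13770 transcripts that met the same condition, 16.4% were higher and 15.4% lower with DAC, 4.43% and 2.48% with ATRA, and 18.2% and 22% with DAC+ATRA.

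The background depends on which transcripts are counted. When every symbol was represented by its most abundant row, as the members were, 27.9% of 12822 symbols were called higher under DAC, 6.26% under ATRA and 30.7% under both drugs, and the medians over these rows were 0.13, 0 and 0.12. Among protein-coding transcripts alone the medians were 0.22, 0.00 and 0.20, so the DAC median of the members lay below that of protein-coding transcripts. The split of calls also depended on scaling. Of all transcripts called with DAC 66.2% were higher, against 52.8% with size factors from protein-coding transcripts, which moved the median of all transcripts down by 0.15 for DAC and 0.13 for DAC+ATRA. Under that scaling 14 members were higher and 7 lower under DAC, 6 and 3 under ATRA, and 17 and 6 under the combination, where 18.8% and 16.8%, 5.23% and 2.21%, and 22.5% and 20.4% of all transcripts were higher and lower. Scaling to the total of counted reads gave 55.6% higher among all DAC calls, 60.6% in place of 73.2% among ATRA calls, and 51.5% in place of 61.3% among DAC+ATRA calls. It gave 14 members higher and 6 lower with DAC, 17 and 6 with DAC+ATRA, and 3 higher and 4 lower with ATRA, where 4.53% of all transcripts were higher and 2.94% lower. The ATRA split of the members thus rests on a few members near the threshold.

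**Figure D1:**
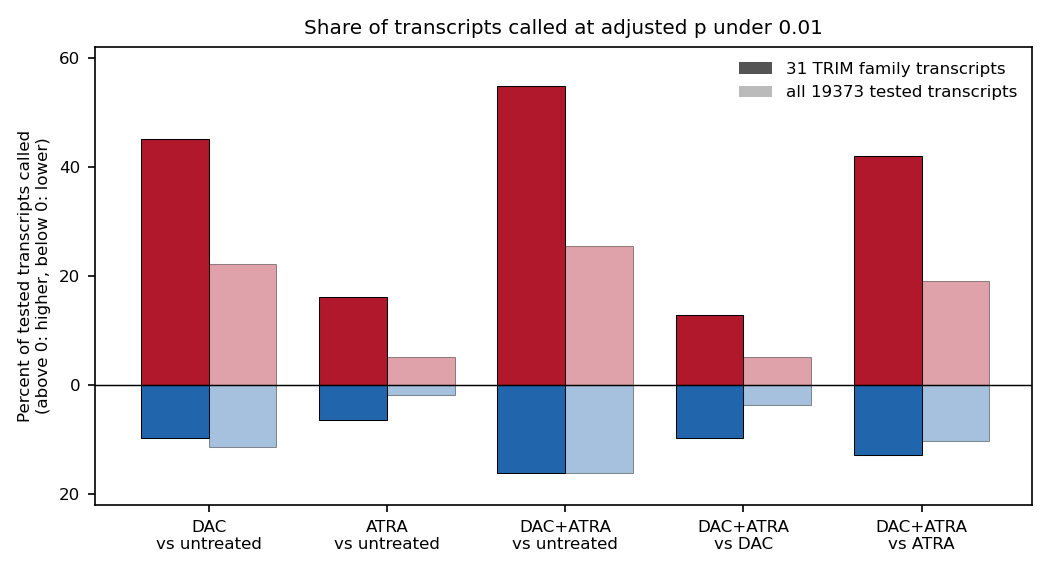
Percent of tested transcripts called higher (above 0) or lower (below 0) at an adjusted p under 0.01 in 5 comparisons, for the 31 tested TRIM family members (dark bars) and all 19373 tested transcripts (light bars). Upward dark bars stand for 14, 5 and 17 of 31 members in the DAC, ATRA and DAC+ATRA comparisons with untreated cells, and the light bars beside them for 22.2%, 5.11% and 25.5%.

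**Figure D2:**
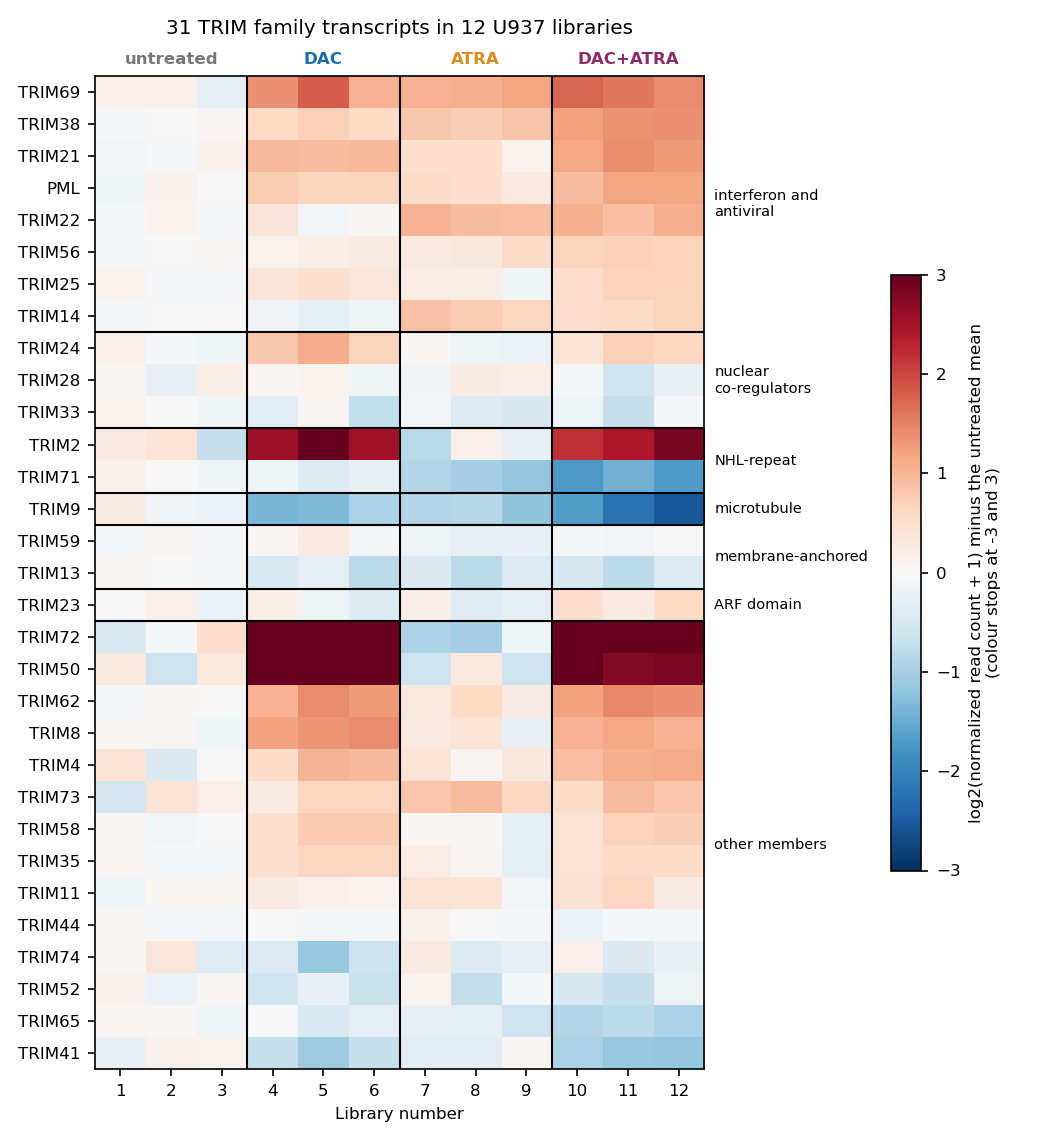
Each row is a tested TRIM family transcript and each column 1 of the 12 libraries, and colour gives log2(normalized read count + 1) minus the mean of the untreated libraries, with black lines between treatment groups and role groups. The 8 interferon and antiviral members are red in all DAC+ATRA libraries, and TRIM72, TRIM50 and TRIM2 are dark red wherever DAC was given.

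The interferon and antiviral group held 12 members, of which 8 were tested. It was drawn up with results known and leaves out TRIM65, a ligase of the RNA sensor MDA5 that was called lower with DAC+ATRA, so its counts depend on the grouping. All 8 were higher with DAC+ATRA, where 25.5% of all transcripts were, with log2 fold changes from 0.57 for TRIM14 to 1.58 for TRIM69. With either drug alone 5 of the 8 were called higher and none lower, where 22.2% of all transcripts were higher with DAC and 5.11% with ATRA. In at least 1 other setting of the analysis TRIM14 was called lower with DAC (smallest adjusted p over the settings 0.00060). TRIM21, TRIM25 and PML were called with DAC and not with ATRA, TRIM14, TRIM22 and TRIM56 with ATRA and not with DAC, and TRIM38 and TRIM69 with each. Whether the DAC and ATRA values of a member differ from each other was not tested.

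TRIM38, a ligase that tunes Toll-like receptor and nucleic acid sensing pathways (chr6:25962802-25991231), rose with each drug and further with both. Its normalized read counts were 2521, 2587 and 2749 in untreated libraries, 3979, 4294 and 3959 with DAC, 4566, 4381 and 4740 with ATRA, and 6186, 6667 and 6786 with DAC+ATRA. The 4 groups formed 4 steps without overlap. The fold change was 1.56 with DAC, 1.74 with ATRA (limma, adjusted p = 1.0e-07) and 2.5 with DAC+ATRA (adjusted p = 1.4e-12), and DAC+ATRA also exceeded DAC alone (log2 0.68 ± 0.09 SE, adjusted p = 1.6e-06) and ATRA alone (log2 0.52 ± 0.09 SE, adjusted p = 1.9e-05).

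TRIM69, an interferon-induced inhibitor of some RNA viruses (chr15:44728988-44767829), also rose with each drug. Its untreated values were under the filter value, so it was tested because treated libraries exceeded it. It read 9.19, 9.10 and 6.46 in untreated libraries, 22.7, 31.2 and 17.9 with DAC, 18.0, 18.2 and 20.0 with ATRA, and 29.8, 26.3 and 23.5 with DAC+ATRA. Every treated library lay above every untreated one, and the DAC libraries overlapped both other treated groups, which did not overlap each other. Its log2 fold changes were 1.41 ± 0.28 (SE), 1.10 ± 0.28 and 1.58 ± 0.28, with limma adjusted p of 0.00016, 0.0075 and 3.0e-05. The ATRA call did not pass with edgeR, DESeq2 or without any 1 untreated or ATRA library, where the adjusted p reached up to 0.059. Its row is a transcript without a defined coding sequence that held 95.5% of the values of the gene.

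TRIM22, an interferon-inducible restriction factor of retroviruses (chr11:5689610-5737089), moved with ATRA. It read 373, 413 and 375 in untreated libraries, 505, 367 and 399 with DAC, 793, 734 and 722 with ATRA, and 817, 723 and 819 with DAC+ATRA. The libraries with ATRA did not overlap those without, and DAC and untreated libraries overlapped. The fold change was 1.93 with ATRA (adjusted p = 1.7e-06) and 2.03 with DAC+ATRA (adjusted p = 8.2e-08), and the difference between DAC+ATRA and ATRA was 0.07 ± 0.12 (SE, log2; adjusted p = 0.69). A second TRIM22 row, a retained-intron transcript, had means of 96.1, 122, 183 and 256 in the order untreated, DAC, ATRA and DAC+ATRA, and was also called with ATRA (adjusted p = 0.00058) and DAC+ATRA (adjusted p = 1.3e-07).

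TRIM14, an adaptor of the mitochondrial antiviral signalling complex (chr9:98069275-98119222), also moved with ATRA. Its values were 1527, 1599 and 1597 untreated, 1457, 1282 and 1412 with DAC, 2882, 2691 and 2405 with ATRA, and 2260, 2292 and 2488 with DAC+ATRA. All libraries with ATRA exceeded all without it, and the 3 DAC libraries lay below the untreated ones without a call (log2 -0.19 ± 0.10 SE, adjusted p = 0.12). Over the other settings this DAC value was -0.35 to -0.13 with an adjusted p of 0.00060 to 0.33, so the missing call depended on the setting. The rise was 1.68-fold with ATRA (adjusted p = 2.3e-06) and 1.49-fold with DAC+ATRA (adjusted p = 1.9e-05).

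TRIM56, a ligase linked to STING and Toll-like receptor 3 signalling (chr7:101085481-101097967), rose least of the ATRA set. It read 2701, 2768 and 2851 untreated, 2961, 3203 and 3298 with DAC, 3380, 3486 and 4103 with ATRA, and 4391, 4530 and 4502 with DAC+ATRA. Its groups did not overlap, and their means rose in that order. The ATRA value was 1.31-fold (adjusted p = 0.0040) and the DAC+ATRA value 1.61-fold (adjusted p = 5.5e-07). The ATRA call did not hold without any 1 of the untreated libraries, with scaling to total reads or in a fit of these 2 groups alone (adjusted p up to 0.025).

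TRIM21, the cytosolic receptor for antibody Fc (chr11:4384897-4393702), moved with DAC. It read 470, 478 and 538 untreated, 967, 958 and 984 with DAC, 704, 698 and 535 with ATRA, and 1104, 1292 and 1202 with DAC+ATRA. Both groups with DAC lay above both without it, and ATRA library 9 sat among the untreated values. The fold change was 1.96 with DAC (adjusted p = 1.4e-07) and 2.42 with DAC+ATRA (adjusted p = 8.6e-10). With ATRA the log2 difference was 0.37 ± 0.12 (SE, adjusted p = 0.035), and without library 9 it was 0.50 and called (adjusted p = 0.00091). TRIM25, the ligase that activates the RNA sensor RIG-I, rose 1.33-fold with DAC (adjusted p = 0.0016) and 1.55-fold with DAC+ATRA (adjusted p = 1.1e-05). The DAC call of TRIM25 was lost without untreated library 2 or 3, with an adjusted p of up to 0.013.

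PML (chr15:73994673-74047827) read 229, 278 and 252 in untreated libraries, 426, 398 and 402 with DAC, 371, 360 and 308 with ATRA, and 478, 572 and 571 with DAC+ATRA. The 4 groups did not overlap. The fold change was 1.62 with DAC (adjusted p = 4.3e-05) and 2.13 with DAC+ATRA (adjusted p = 3.3e-08), and ATRA gave a log2 difference of 0.45 ± 0.12 (SE, adjusted p = 0.014), which was 0.53 and called without library 9 (adjusted p = 0.0029). The row is a retained-intron transcript with 92.6% of the PML values. The most abundant protein-coding PML row had means of 8.26, 15, 12.2 and 32.9 in the order untreated, DAC, ATRA and combination, and was called for DAC+ATRA (adjusted p = 8.8e-06), while its DAC difference had an adjusted p of 0.033.

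**Figure D3:**
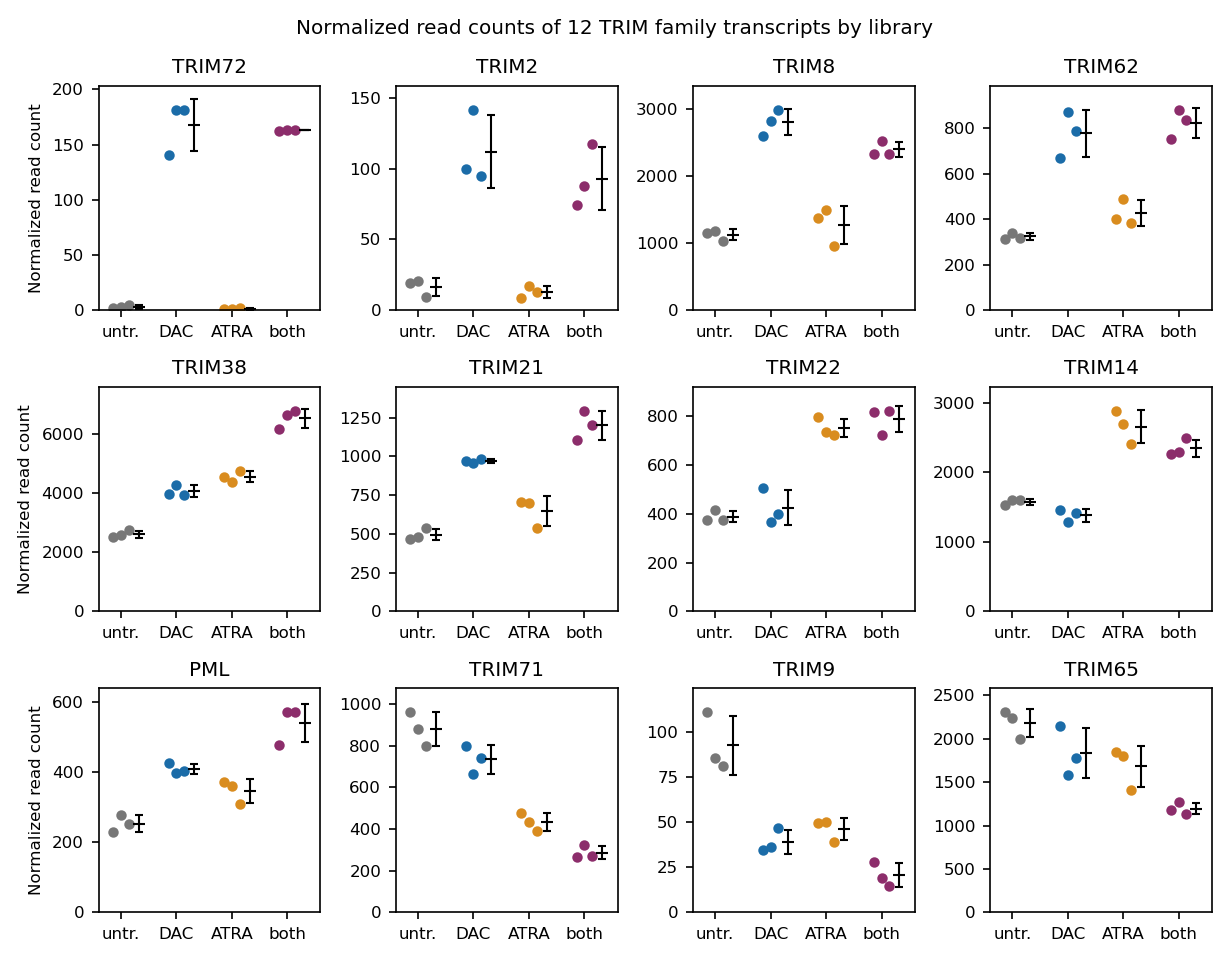
Normalized read counts (vertical axes, from 0) of 12 TRIM family transcripts in untreated, DAC, ATRA and DAC+ATRA libraries (3 points each), with the mean and SD beside the points. TRIM72, TRIM2, TRIM8 and TRIM62 are high in both groups with DAC, TRIM22 and TRIM14 in both groups with ATRA, and TRIM71, TRIM9 and TRIM65 are lowest with DAC+ATRA.

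Promoter windows of the RefSeq table (GRCh38.p14, 250 bases before to 50 bases after a start) were searched because all 8 tested members of the interferon group rose with DAC+ATRA. Of the 31 tested members 22 had a window, and the start of the member's row coincided with that of the window for 16. PML, TRIM4, TRIM8, TRIM11, TRIM13, TRIM22, TRIM24, TRIM28 and TRIM35 had none. The core of the interferon-stimulated response element (ISRE), here 2 copies of GAAA with any 2 bases between them on either strand, was present in 4 windows, of TRIM14, TRIM21, TRIM44 and TRIM69, and in 3.57% of all 35116 windows. In the interferon group the windows of TRIM25, TRIM38 and TRIM56 held no such core. The STAT element GAS (TTCNNNGAA, either strand) was in no member window and in 7.66% of all windows. The retinoic acid receptor repeats DR1, DR2 and DR5, direct repeats of a half-site spaced by 1, 2 or 5 bases, were in no member window on either strand, and in 0.131%, 0.0399% and 0.0883% of all windows. The 4 ISRE stretches are shown because 3 belong to called members and 1 to TRIM44, which was not called in any comparison of the limma fit described above (log2 -0.08 to 0.02 against untreated). They run 5′ to 3′ along the gene with the ISRE core in capitals, from 250 bases to 1 base before the start, except TRIM21, for which bases 11 to 40 after the start hold 2 overlapping cores. The TRIM69 window lies 7527 bases from the start of the row measured here.
TRIM14, chr9:98119223-98119472, minus strand: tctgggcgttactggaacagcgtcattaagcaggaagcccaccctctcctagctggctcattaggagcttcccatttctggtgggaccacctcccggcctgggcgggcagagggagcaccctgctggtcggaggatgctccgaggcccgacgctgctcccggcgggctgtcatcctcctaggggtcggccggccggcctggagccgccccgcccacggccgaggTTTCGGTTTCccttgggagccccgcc
TRIM69, chr15:44736278-44736527, plus strand: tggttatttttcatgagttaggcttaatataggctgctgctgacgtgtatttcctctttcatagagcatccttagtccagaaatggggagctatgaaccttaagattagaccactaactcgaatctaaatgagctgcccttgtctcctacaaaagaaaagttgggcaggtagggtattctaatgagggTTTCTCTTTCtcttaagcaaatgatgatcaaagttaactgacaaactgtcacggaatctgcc
TRIM44, chr11:35662525-35662774, plus strand: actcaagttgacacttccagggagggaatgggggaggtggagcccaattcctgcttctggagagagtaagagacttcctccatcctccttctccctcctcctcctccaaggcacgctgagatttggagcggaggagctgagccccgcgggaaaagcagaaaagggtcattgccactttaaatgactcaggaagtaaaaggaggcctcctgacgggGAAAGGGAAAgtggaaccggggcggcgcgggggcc
TRIM21, chr11:4393663-4393692, minus strand: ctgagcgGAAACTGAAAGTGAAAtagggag

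DAC raised 12 members that were not called with ATRA, and all 12 were also called higher with DAC+ATRA. The first pattern was shown by 18.4% of all tested transcripts, and 84.3% of those were also higher with DAC+ATRA. Besides PML, TRIM21 and TRIM25 these were TRIM72, TRIM50, TRIM2, TRIM8, TRIM62, TRIM24, TRIM4, TRIM58 and TRIM35. Adding ATRA to DAC moved none of these 9 past the threshold (log2 -0.54 for TRIM50 to 0.20 for TRIM4).

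TRIM72, a muscle protein of membrane repair also called MG53 (chr16:31214119-31231537), passed the filter only through libraries that had DAC, so its test is given as a description. It read 1.84, 2.73 and 4.62 in untreated libraries, 141, 181 and 181 with DAC, 1.06, 0.91 and 2.5 with ATRA, and 163, 163 and 163 with DAC+ATRA. All 6 libraries with DAC were above 100 and all 6 without it were under 5. The log2 fold change was 5.42 ± 0.29 (SE, adjusted p = 3.2e-14) with DAC and 5.39 ± 0.29 (adjusted p = 2.6e-14) with DAC+ATRA. Per kilobase of its own exons (8402 bases) the mean level went from 0.364 to 20.0 normalized reads with DAC.

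TRIM50, a ligase known from gastric parietal cells (chr7:73312536-73328082), had 2 reads in all in the untreated libraries, 52 with DAC and 35 with DAC+ATRA. Its normalized values were 0.92, 0 and 0.92 untreated, 18.4, 21.4 and 12.9 with DAC, 0, 0.91 and 0 with ATRA, and 16.3, 9.47 and 9.89 with DAC+ATRA. Libraries with and without DAC did not overlap. TRIM50 too passed the filter only through libraries that had DAC, so its adjusted p (1.9e-07 and 1.8e-06) is given as a description. The ratio to untreated was 28.8 with DAC (95% interval 7.57 to 244) and 20.0 with DAC+ATRA (5.13 to 171), where the intervals cover counting error only.

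TRIM2, an NHL-repeat ligase known from neurons (chr4:153152163-153339319), read 19.3, 20.9 and 9.24 untreated, 99.4, 141 and 94.6 with DAC, 8.45, 17.3 and 13.3 with ATRA, and 74.1, 87.4 and 117 with DAC+ATRA. Again the libraries fell into those with and those without DAC. The fold change was 6.69 with DAC (adjusted p = 1.6e-08) and 5.57 with DAC+ATRA (adjusted p = 6.3e-08). A second TRIM2 row went from a mean of 0.308 untreated to 22.3 with DAC and 19.1 with DAC+ATRA, and was listed at 0 with ATRA.

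TRIM8, which acts on cytokine signalling through SOCS1 (chr10:102642503-102658318), and TRIM62, a ligase of epithelial polarity and of CARD9 signalling (chr1:33145399-33182059), also moved with DAC. TRIM8 read 1163, 1189 and 1033 untreated, 2607, 2832 and 2990 with DAC, 1374, 1503 and 960 with ATRA, and 2331, 2534 and 2339 with DAC+ATRA. TRIM62 read 314, 340 and 320 untreated, 671, 874 and 790 with DAC, 403, 492 and 385 with ATRA, and 752, 881 and 837 with DAC+ATRA. In both genes the DAC values cleared all values without DAC. TRIM8 rose 2.49-fold with DAC (adjusted p = 2.4e-09) and 2.13-fold with DAC+ATRA (adjusted p = 4.6e-08). TRIM62 rose 2.38-fold with DAC (adjusted p = 4.8e-09) and 2.52-fold with DAC+ATRA (adjusted p = 1.0e-09), and its ATRA difference of 0.38 ± 0.12 (SE, log2) had an adjusted p of 0.042.

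TRIM24, a nuclear receptor co-regulator of the TIF1 group (chr7:138460259-138589996), was the called one of the 3 tested nuclear co-regulators. Its values were 194, 170 and 157 untreated, 304, 378 and 277 with DAC, 178, 157 and 151 with ATRA, and 231, 285 and 266 with DAC+ATRA. The groups with DAC lay above the others, and the rise was 1.83-fold with DAC (adjusted p = 1.6e-05) and 1.5-fold with DAC+ATRA (adjusted p = 0.0012). The second call was lost without untreated library 3 or DAC+ATRA library 11 (adjusted p up to 0.012). Its relatives TRIM28, the co-repressor of KRAB zinc finger proteins, and TRIM33 were not called in any comparison. The TRIM28 row had a mean of only 26.3 untreated, and another protein-coding TRIM28 row was called higher with DAC+ATRA (means 9.47 and 30.8, adjusted p = 0.00025). TRIM58, an erythroid ligase, TRIM35 and TRIM4 rose with DAC by log2 0.68, 0.59 and 0.84 and with DAC+ATRA by 0.61, 0.52 and 1.03. The DAC call of TRIM4 was lost in 3 settings that left out 1 library (adjusted p up to 0.022).

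DAC acts on methylated CG dinucleotides, which were counted in the promoter windows. The 9 windows of members called higher with DAC held a median of 7 CG (3 to 37), and the 13 windows of the other tested members a median of 28 (13 to 44), beside a median of 14 over all windows. The windows of TRIM50 and TRIM69, with 3 CG each, lie 2507 and 7527 bases from the start of the row measured. TRIM50, TRIM69 and TRIM72 were also tested only because treated libraries passed the filter. The groups were defined by the outcome, so this is a description without a test, and methylation was not measured here. The windows of TRIM72 and TRIM2, the largest DAC responders with a row that starts at the window's start, are set beside that of TRIM71, which fell with ATRA. CG dinucleotides are in capitals, and the stretches run from 250 bases to 1 base before the start. They hold 5, 4 and 25 CG.
TRIM72, chr16:31213869-31214118, plus strand: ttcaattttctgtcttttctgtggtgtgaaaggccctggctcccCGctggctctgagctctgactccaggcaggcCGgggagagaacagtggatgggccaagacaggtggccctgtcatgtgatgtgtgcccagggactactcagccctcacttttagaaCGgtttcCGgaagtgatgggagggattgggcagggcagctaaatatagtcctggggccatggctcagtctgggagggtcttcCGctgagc
TRIM2, chr4:153204193-153204442, plus strand: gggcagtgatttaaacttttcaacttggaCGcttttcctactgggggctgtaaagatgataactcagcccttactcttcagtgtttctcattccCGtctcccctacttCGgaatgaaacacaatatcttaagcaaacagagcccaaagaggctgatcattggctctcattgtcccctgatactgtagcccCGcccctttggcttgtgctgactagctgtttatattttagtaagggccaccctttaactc
TRIM71, chr3:32817747-32817996, plus strand: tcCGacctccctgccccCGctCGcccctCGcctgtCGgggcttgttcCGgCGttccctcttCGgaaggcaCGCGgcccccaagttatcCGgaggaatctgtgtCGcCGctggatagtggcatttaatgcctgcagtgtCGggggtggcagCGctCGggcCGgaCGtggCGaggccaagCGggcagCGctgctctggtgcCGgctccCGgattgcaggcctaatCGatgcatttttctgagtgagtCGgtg

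TRIM9, TRIM71, TRIM65, TRIM41 and TRIM13 were lower with DAC+ATRA. TRIM9, a brain ligase that binds the netrin receptor DCC (chr14:50975262-51096061), fell with each drug. It read 111, 85.6 and 81.3 untreated, 34.6, 36.0 and 46.8 with DAC, 49.6, 50.1 and 39.1 with ATRA, and 28.0, 18.9 and 14.8 with DAC+ATRA. Every treated library was below every untreated one, and the DAC+ATRA libraries were lowest of all. The log2 fold changes were -1.22 ± 0.23 (SE, adjusted p = 9.7e-05), -0.98 ± 0.23 (adjusted p = 0.0042) and -2.15 ± 0.23 (adjusted p = 1.5e-08). The ATRA call was lost in 4 settings that left out 1 library (adjusted p up to 0.039). The difference between DAC+ATRA and DAC (log2 -0.93) was called with limma (adjusted p = 0.0057) and not with edgeR or DESeq2 (up to 0.054 over its settings).

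TRIM71, the LIN-41 protein that represses mRNAs in stem cells and is a target of let-7 (chr3:32817997-32897824), followed ATRA. It read 962, 883 and 800 untreated, 801, 664 and 740 with DAC, 478, 433 and 391 with ATRA, and 267, 323 and 272 with DAC+ATRA. The groups with ATRA lay below those without it and did not overlap each other. The log2 fold change was -1.02 ± 0.12 (SE) with ATRA (adjusted p = 5.9e-07) and -1.62 ± 0.12 with DAC+ATRA (adjusted p = 2.3e-11), and DAC alone gave -0.26 ± 0.12 (adjusted p = 0.080). Over the other settings the DAC value was -0.42 to -0.19 with an adjusted p of 0.0019 to 0.26, so it was called lower in at least 1. DAC+ATRA was also lower than ATRA (log2 -0.60, adjusted p = 0.00027) and than DAC (log2 -1.35, adjusted p = 5.4e-09).

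TRIM65 (chr17:75880335-75896951) was called lower in the combination. It read 2307, 2235 and 1997 untreated, 2148, 1577 and 1779 with DAC, 1843, 1797 and 1412 with ATRA, and 1184, 1267 and 1136 with DAC+ATRA. The DAC+ATRA libraries lay below all others. The log2 fold change was -0.86 ± 0.12 (SE, adjusted p = 8.9e-07), with -0.26 for DAC (adjusted p = 0.077) and -0.38 for ATRA (adjusted p = 0.036), which did not pass. Each single drug was called lower in at least 1 other setting, with a smallest adjusted p of 0.00099 for DAC and 0.0015 for ATRA. DAC+ATRA was lower than DAC (log2 -0.61, adjusted p = 0.00056) and than ATRA (log2 -0.48, adjusted p = 0.0017). The first of these was lost without DAC library 4 (adjusted p = 0.010) and the second in 3 settings that left out 1 library (up to 0.013).

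TRIM41, a ligase of protein kinase C (chr5:181222499-181235808), read 223, 288 and 282 untreated, 162, 123 and 161 with DAC, 207, 209 and 280 with ATRA, and 135, 118 and 117 with DAC+ATRA. Its row is a retained-intron transcript. Both groups with DAC lay under both without, with log2 fold changes of -0.83 (adjusted p = 9.2e-05) and -1.09 (adjusted p = 1.6e-06). TRIM13, which sits in the membrane of the endoplasmic reticulum (chr13:49995888-50020481), read 295, 279 and 272 untreated, 204, 233 and 163 with DAC, 208, 159 and 211 with ATRA, and 197, 162 and 210 with DAC+ATRA. The 3 treated groups overlapped each other below the untreated values. The TRIM13 log2 difference was -0.51 with DAC (adjusted p = 0.0078), -0.56 with ATRA (adjusted p = 0.014) and -0.58 with DAC+ATRA (adjusted p = 0.0023). The DAC call was lost in 7 settings (adjusted p up to 0.069) and the DAC+ATRA call without untreated library 1 or DAC+ATRA library 11 (up to 0.024).

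**Figure D4:**
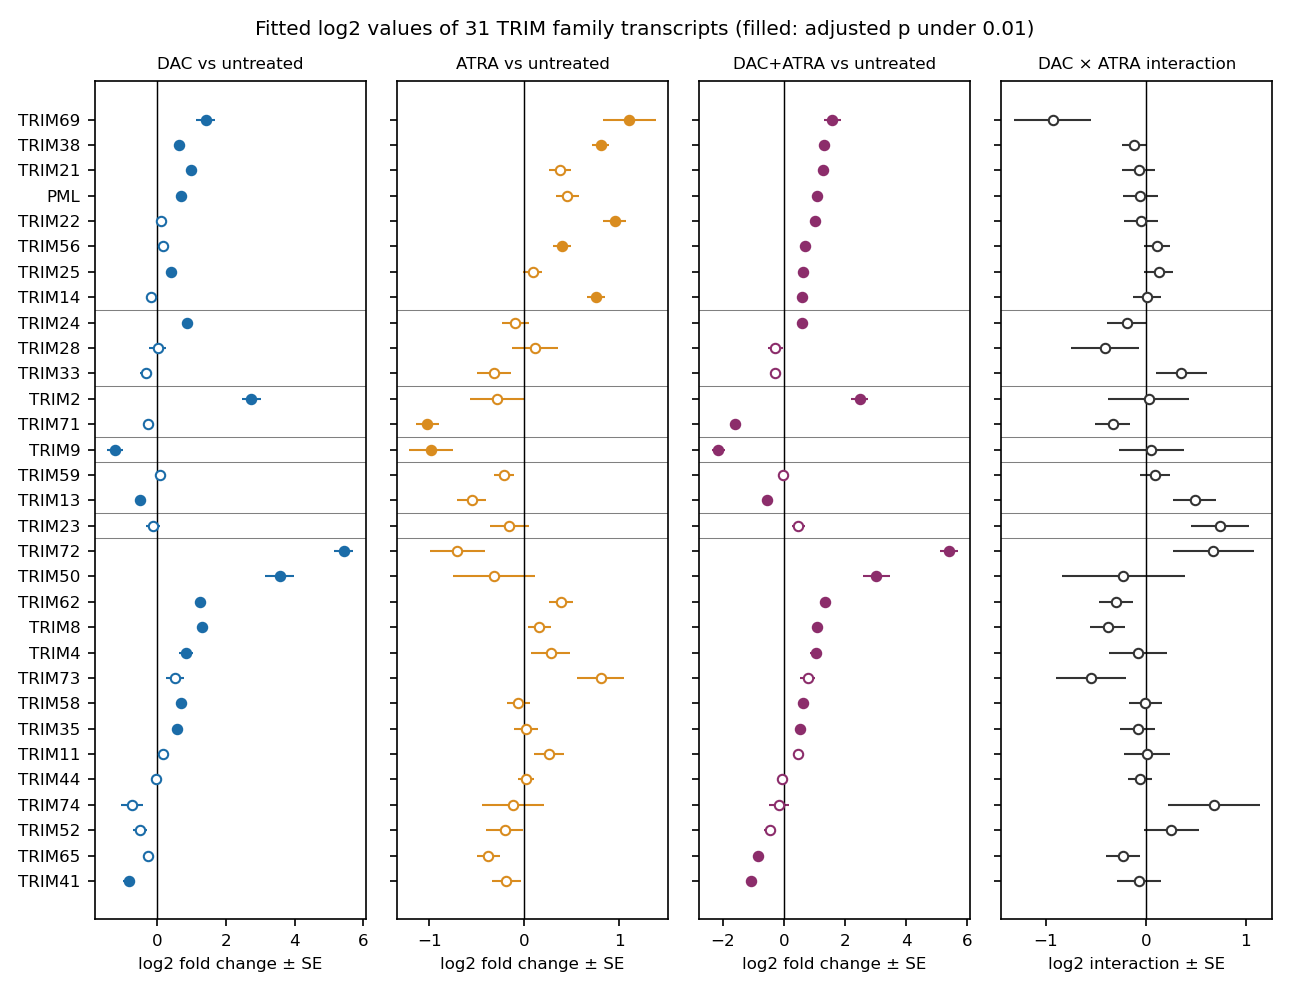
Fitted log2 fold changes against untreated for DAC, ATRA and DAC+ATRA, and the log2 interaction, each ± SE, for the 31 tested TRIM family transcripts in role groups; filled points have an adjusted p under 0.01, and the horizontal scales differ between panels. TRIM72 reaches 5.42 with DAC, TRIM71 falls to -1.62 with DAC+ATRA, and no interaction point is filled.

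The interaction term asks whether the combined value departs from the sum of the single-drug log2 changes. None of the 31 members was called for it, where 1.51% of all transcripts were, 0.527% with a value above and 0.986% with a value below the sum. Without adjustment 4 members had p under 0.05 in limma (TRIM8, TRIM13, TRIM23 and TRIM69), the same number in edgeR, and 3 in DESeq2, each with 0 calls after adjustment. Estimates ran from -0.93 ± 0.39 (SE) for TRIM69 to 0.74 ± 0.29 for TRIM23, and 26 of 31 lay within 0.5 of 0. The SE ranged from 0.12 to 0.61, so departures of the size of the smaller drug responses could go uncalled, for abundant members as well as for scarce ones. Without ATRA library 9, TRIM8 was called (log2 -0.58, adjusted p = 0.0045, against -0.38 and 0.31 with all libraries), and calls over all transcripts rose from 1.51% to 2.95%. Its ATRA difference was then 0.35 in place of 0.16 on the log2 scale.

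ATRA on top of DAC changed 7 of the 31 members, where 8.77% of all transcripts were called, 5.18% higher and 3.59% lower. TRIM14, TRIM22, TRIM38 and TRIM56 were higher, and TRIM9, TRIM65 and TRIM71 lower. DAC on top of ATRA changed 17 members against 29.4% of all transcripts. Of these 13 were higher and 4 lower, beside 19.1% and 10.2% of all transcripts. These comparisons share libraries with those against untreated cells.

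Of the tested members 9 were not called against untreated in any group, namely TRIM11, TRIM23, TRIM28, TRIM33, TRIM44, TRIM52, TRIM59, TRIM73 and TRIM74. In at least 1 other setting TRIM11, TRIM44 and TRIM73 were called with DAC+ATRA and TRIM52 with DAC. Their smallest adjusted p over the settings were 0.0039, 0.0027, 0.0037 and 0.0089. TRIM44, which lacks a RING finger, changed little, at 4979, 4718 and 4700 untreated and 4271 to 5237 in treated libraries. TRIM73 missed the threshold with DAC+ATRA (log2 0.77 ± 0.25 SE, adjusted p = 0.011). TRIM73 and TRIM74 are near-identical copies, so how reads were shared between them is uncertain.

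Levels per length divide all reads of a row by the exon bases that no other annotated transcript covers. How reads on shared bases were counted is not given, so the levels and their order depend on this divisor. On this scale TRIM65 and TRIM25 were highest in untreated cells, at 1038 and 866 normalized reads per kilobase. TRIM8 and TRIM14 followed at 551 and 527, then TRIM21, TRIM44 and TRIM59 at 403, 385 and 371. At the low end stood TRIM2 at 5.57, TRIM69 at 3.61, TRIM50 at 1.22 and TRIM72 at 0.364. TRIM22 has only 18 such bases and TRIM52 253, so no level per length is given for them.

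The other 41 members did not pass the filter. Of these 17 were listed at 0 in all libraries and 24 had some reads, with no value above 14.8. In the interferon and antiviral group these were TRIM5, TRIM6, TRIM26 and TRIM34, with TRIM6 and TRIM26 at 0. The TRIM5 row, 1 of 11 rows of this retroviral capsid restriction factor with 45.0% of its values, had 0 reads over the untreated libraries and 19 over the DAC+ATRA libraries, at least 7.23-fold higher against a floor of 3 reads over the group. TRIM17 reads appeared in DAC+ATRA libraries alone, 13 in all (at least 4.94-fold higher). TRIM67 had 10 in DAC libraries against 0 untreated (at least 3.69-fold higher), and TRIM54, a muscle RING finger protein, had 11 with DAC+ATRA (at least 4.18-fold higher). TRIM47 had 2, 5 and 14 reads in the DAC libraries and 2, 2 and 3 in the DAC+ATRA libraries against 0 untreated, so most of its DAC reads came from library 6 and no fold is given. TRIM7 reached 8.96 to 13 with DAC and 7.37 to 14.8 with DAC+ATRA, with untreated values of 0.92 to 6.37. The rows named hold 76.2% of the values of TRIM17, 53.7% of TRIM47, 79.5% of TRIM54 and 67.9% of TRIM7. The folds set the untreated group at 3 reads and hold no counting error of the treated reads. With the counting error of both groups the lower limits of the 95% intervals were 5.33 for TRIM5, 3.48 for TRIM17, 2.48 for TRIM67 and 2.86 for TRIM54.

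The 10 primate-expanded members such as TRIM43, TRIM48, TRIM49 and TRIM64 stayed at 1.95 or below in each library, and 7 of them were listed at 0. The 6 members of the MHC region that are in no other role group, TRIM10, TRIM15, TRIM27, TRIM31, TRIM39 and TRIM40, reached at most 7.39. Most rows of these MHC genes match no transcript of the annotation used (72 of 83 rows for TRIM39) and may be transcripts of alternate haplotypes, which was not tested. How reads that fit several transcripts were counted is not given in the sources used here, so a value of 0 does not show that the gene is silent. Low values were also found for the NHL-repeat members TRIM3 and TRIM32 (at most 10.7), the microtubule-associated COS-box members TRIM36, TRIM46, TRIM54, TRIM55, TRIM63 and TRIM67 (at most 6.37), TRIM37 (at most 2.5), TRIM66 (at most 5.26), TRIM68 (at most 4.16) and TRIM45 (listed at 0).

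Genes that work with TRIM proteins were counted in 3 lists. Of 30 genes of RNA and DNA sensing and interferon signalling 27 were tested. With DAC 15 were higher (22.2% of all transcripts), with ATRA 6 (5.11%), and with DAC+ATRA 20 were higher and 1 lower (25.5% and 16.1%), with medians of 0.51, 0.28 and 0.92 on the log2 scale. Its extremes with DAC+ATRA were SOCS1, a feedback inhibitor of JAK-STAT signalling (5.86), and the transcription factor IRF5 (-1.09, a retained-intron row).

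Of 26 genes of PML nuclear bodies and SUMO conjugation 22 were tested, and DAC+ATRA raised 7 and lowered 1, where 25.5% and 16.1% of all transcripts were called. DAC raised 5 and lowered 1 (22.2% and 11.3% of all transcripts), and ATRA raised 2 (5.11%), so the shares of this list called higher with DAC and DAC+ATRA were near those of all transcripts. The extremes were the interferon-induced exonuclease ISG20 (log2 2.32, a retained-intron row) and the SUMO-activating subunit SAE1 (log2 -0.79). Of 22 genes of TRIM28-linked heterochromatin silencing 16 were tested, with 5 higher and 6 lower with DAC+ATRA (25.5% and 16.1% of all transcripts), 3 and 4 with DAC (22.2% and 11.3%), and 1 higher with ATRA (5.11%). The shares called higher were near those of all transcripts. DNMT3A stood at one end (log2 1.43) and DNMT1, the maintenance methyltransferase that DAC depletes, at the other (log2 -1.13, a retained-intron row).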

How the data were processed

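Total RNA of U937 cells was depleted of ribosomal RNA and sequenced as stranded paired-end libraries. Per the labels and the methods the authors used FastQC, STAR, HTSeq and DESeq2 with hg38; versions and the settings of alignment and counting are not given in the sources used here. The deposited matrix holds a signal per transcript, read counts that the authors divided by 1 size factor per library. Whole reads were recovered for 100% of values (tolerance 0.01 read). The 12 columns carry running numbers, so replicate numbers of the labels were not assigned.

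Transcripts of any biotype with a value of at least 10 in at least 3 libraries (19373 of 197782 rows) entered 1 limma 3.58.1 fit (trend and robust) on log2(value + 1) of all 12 libraries, with Benjamini-Hochberg adjustment over all of them and a threshold of 0.01. The study tested protein-coding transcripts only, which is an alternative here. Alternatives used edgeR 4.0.16 and DESeq2 1.42.0 on recovered reads, other size factors, filters, pseudocounts and thresholds, summed rows, fits of only the groups compared, and fits without 1 library each. The scripts were tested on simulated data. Annotation was GENCODE on GRCh38, and promoter sequences were from RefSeq (GRCh38.p14). Levels cover counting error as far as intervals are given (95%, floor 3 reads).

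Named with values in each library were PML, any member called for the interaction, and in each comparison with untreated the 8 called members with the largest rise and the 4 with the largest fall. Lists are described by counts. Members, role groups and lists were chosen with earlier results of these data known.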

Additional observations from a re-analysis of the deposited data

How the results depend on the processing

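Of 70 calls of a member in a comparison, 56 kept direction and threshold in every setting, 14 lost the threshold in at least 1 setting and 0 reversed. Calls were also gained where the main fit had none. These were 10 with size factors from protein-coding transcripts, 7 with scaling to total reads, 2 with DESeq2 and 12 at a threshold of 0.05. Fits that left out 1 library gained 10 in all. The number of members called for ATRA against untreated was 7, fell to 4 without untreated library 1 or untreated library 2, and ranged from 4 to 8 when 1 library was left out. At a threshold of 0.05 it was 13, where 11.2% of all transcripts were called in place of 6.97%. For the interaction the count was 0 in all settings except without ATRA library 9, where it was 1, so leaving out 1 library gave 0 to 1. Calls over all transcripts rose from 1.51% to 2.95% in that fit. For the other comparisons each count stayed within 1.5 times. Most lost calls came from leaving out 1 library, which leaves 2 libraries in that group. In the fit of protein-coding transcripts PML is represented by another row, and its DAC call was lost (adjusted p = 0.030). No paired analysis was possible because the columns carry running numbers over the 12 libraries and not the replicate numbers of the labels. Depth limits the 41 members under the filter, for which 3 reads correspond to 2.5 to 3.71 normalized reads.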
